A study of Mus musculus with 6 samples.

Results

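The cytosolic ribosomal protein genes were followed through RNA-seq of polyadenylated RNA from mouse microglia kept in vitro. Members were taken by mouse symbol: Rpl or Rps with a number and at most 1 letter or the suffix l or x, Rplp0, Rplp1, Rplp2 and Rpsa, with at least 10 counts summed over the libraries. The rule matched 83 symbols, of which Rpl10l had no count, and left 82 of the 36528 gene identifiers listed: 50 of the large and 32 of the small ribosomal subunit. Rack1 and Fau encode further ribosomal subunits but have other names, and Rps3a1, Rpl36al, Rpl22l1, Rpl7l1, Rpl37rt and Rps27rt fall outside the rule by the form of their symbols. Rpl6l, Rpl32l and Rps4l are members by symbol. RefSeq and GENCODE both list Rpl6l and Rps4l as pseudogenes, while Rpl32l is protein-coding in RefSeq and a pseudogene in GENCODE.

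The 3 groups were untreated wild-type microglia (WT untreated), untreated microglia labelled Loxp and Cop1 KO (Cop1 KO), and wild-type microglia treated with LPS, the bacterial lipopolysaccharide sensed by TLR4 (WT LPS). Each group held 2 libraries, numbered here as replicates 1 and 2 in order of deposition; the numbers only name them. The labels give brain as the tissue of origin, but not the age or strain of the mice, the allele or Cre driver, the dose or time of LPS, or whether the 2 libraries of a group came from separate cultures. P-values therefore measure only the spread between these libraries, which may be technical. COP1 is a ubiquitin ligase subunit. Its transcript stood at 12.7 and 11.5 CPM (counts scaled to library depth and composition) in WT untreated, 8.06 and 9.23 in Cop1 KO and 23.4 and 27.2 in WT LPS. Cop1 was thus lower in the libraries labelled as the knockout, by 0.49 on the log2 scale (SE 0.11, adjusted p = 0.000158), and not lost; limma on the authors' RPKM did not call it (-0.21, adjusted p = 0.26). The labels do not say which part of the gene was removed.

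Library totals lay between 20568144 and 22553708 counts. The markers of microglia summed to 7867 and 7812 CPM in WT untreated, 12049 and 11949 in Cop1 KO and 6108 and 6025 in WT LPS, with all 12 detected. Other cell types were also present in the RNA and differed between groups. The 10 astrocyte markers summed to 777 and 779 CPM in WT untreated and 871 and 878 in WT LPS, but to 54.8 and 50.6 in Cop1 KO. The 9 neuron markers summed to 75.9 and 76.5 CPM, 82.3 and 83.4, and 3.96 and 4.81 in the same order, and Nefl was at 0 in both Cop1 KO libraries. The 9 oligodendrocyte-lineage markers summed to 238 and 233 CPM in WT untreated, 163 and 154 in WT LPS and 132 and 133 in Cop1 KO. Mog was at 0 in both Cop1 KO libraries and in 1 WT LPS library. Of the 8 tested, 6 were lower and 1 higher in Cop1 KO than in WT untreated, and 4 lower and 1 higher with LPS. The 10 fibroblast, endothelial and mural markers summed to 92.4 and 88.3 CPM in WT untreated, 164 and 165 in WT LPS and 196 and 193 in Cop1 KO. Cldn5 was at 0 throughout. Of the 7 tested, 6 were higher and 0 lower in Cop1 KO than in WT untreated (median 1.26). The part of these cells in the values below was not tested. In bulk RNA, fewer cells of a type and less RNA per cell cannot be told apart.

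Each cytosolic ribosome is built from a large and a small subunit, in which the Rpl and Rps proteins coat and hold ribosomal RNA. The messages of these proteins are among the most abundant in most cells. Many of them begin with a C followed by a run of pyrimidines, the 5′ terminal oligopyrimidine (TOP) motif, through which mTORC1 and LARP1 control their translation. The genes also have many processed pseudogenes, copies of the spliced message pasted back into the genome. A short read from such a gene can match a copy as well as its source.

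The last point is visible in the sequences and bears on every level below, because the deposited counts hold only uniquely aligned reads. The first 50 coding bases of Rps3 and of Rps16 (GENCODE transcripts, GRCm38) are shown because these genes stand near the opposite ends of the count range. They have the length of 1 read.
Rps3: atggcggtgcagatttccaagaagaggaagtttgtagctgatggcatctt
Rps16: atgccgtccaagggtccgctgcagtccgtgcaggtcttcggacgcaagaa
Of the 50-base windows of the Rps3 coding sequence, 8.09% were found in an annotated transcript at another locus, on either strand. All of those of Rps16 were.

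Sequences around the start site show the other common feature. Of the 82 members, 60 had an entry in the RefSeq promoter table (GRCm38.p6). A tract of at least 5 pyrimidines that begins with C within 5 bases of the listed start, on the transcribed strand, was present in 28 of them, or 46.7%, and in 20.1% of 11416 other genes tested. With at least 8 pyrimidines the shares were 31.7% and 4.7%. The stretches below run from 10 bases before the listed start to 20 bases from it, 5′ to 3′, with the tract in capitals. Rps24, Rps9, Rpl15 and Rpl27a are shown as members with a tract that differed between groups, and Rpl10a as one that differed and has no tract beginning within 5 bases of the start; its run of pyrimidines begins farther upstream.
Rps24, chr14:24490668-24490697, plus strand: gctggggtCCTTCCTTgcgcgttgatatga
Rps9, chr7:3704031-3704060, plus strand: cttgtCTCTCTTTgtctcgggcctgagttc
Rpl15, chr14:18270967-18270996, minus strand: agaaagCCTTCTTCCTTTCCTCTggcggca
Rpl27a, chr7:109519185-109519214, plus strand: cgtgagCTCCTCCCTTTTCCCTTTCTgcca
Rpl10a, chr17:28328461-28328490, plus strand: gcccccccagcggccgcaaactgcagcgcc
In the promoter windows of 250 bases before to 50 after the start, searched on both strands, CCGGAAG was present in 40.0% of the 60 members and 16.8% of the other genes tested. AAGATGG was present in 13.3% and 7.0%. Such a match is a description of the letters only.

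Coding-window sharing was measured for all members. The median member had 87.5% of its 50-base coding windows at another annotated locus, and 65 of 82 had at least 50%. Among 13108 other protein-coding genes tested the median was 0%, and 422 reached 50%. The measure counts exact matches to annotated transcripts and covers the longest annotated coding sequence only. Over the windows of all annotated transcripts of a member, untranslated and alternative exons included, the median share was 19.6%, with 20.8% for Rpl10a and 4.86% for Rps24.

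Members with more shared windows had fewer counts. The 17 members with under 50% of windows shared had a median of 11679 counts over the 6 libraries and held 67.6% of all member counts. The 38 members from 50% to under 100% had a median of 1384 counts and held 29.6%. The 27 members with every window shared had a median of 225 counts and held 2.81%. Across the 82 genes, which are not independent, the Spearman correlation of sharing with counts was -0.66 and with length-scaled level (normalised RPKM, the authors' scale) -0.68. Exceptions ran both ways: Rpl39l had no shared window and 255 counts, and Rplp1 had 60.4% shared and 20068 counts. Levels below are those of uniquely aligned reads, and the part of sharing in their order was not tested.

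**Figure D1:**
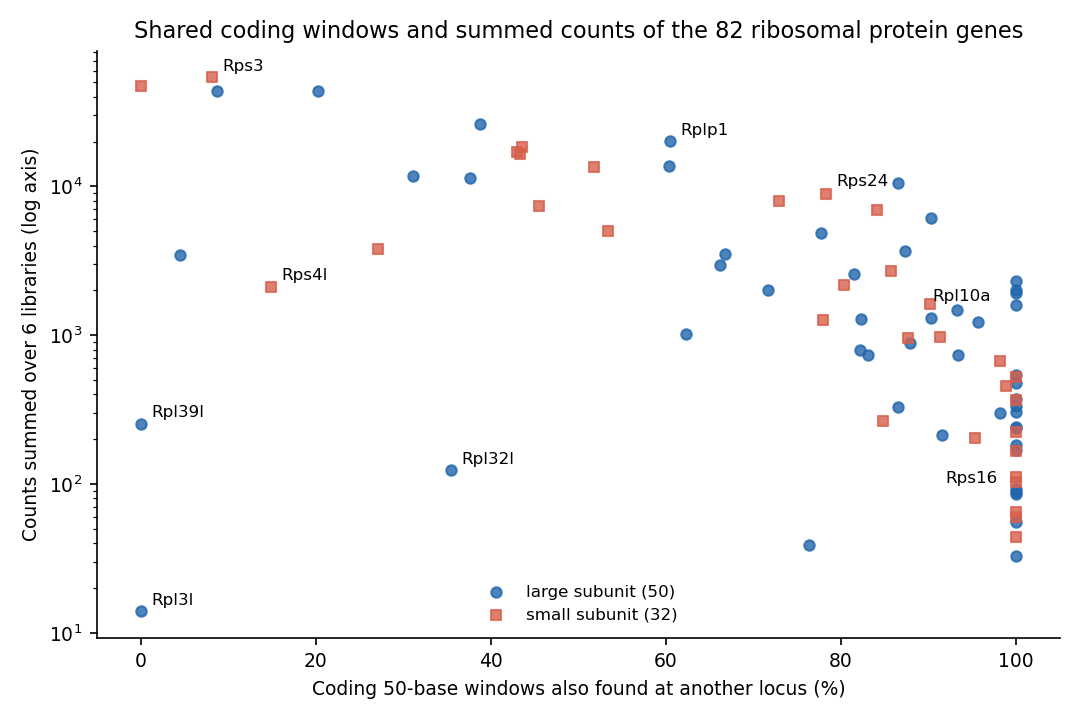
Share of 50-base coding windows found at another annotated locus (%, horizontal axis) against counts summed over 6 libraries (log axis) for each of 82 members, large subunit as circles and small subunit as squares. Members with every window shared all lie at or below 2320 counts, and Rps3, with 8.09% shared, lies at 53936.

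By normalised RPKM averaged over the 6 libraries, the highest members included Rpl8 (279), Rplp1 (238) and Rpl4 (168). Rpl8 and Rpl4 are core proteins of the large subunit, and Rplp1 is part of the acidic stalk that recruits elongation factors. In untreated wild type Rpl8 stood at 251, Rplp1 at 205 and Rpl4 at 162. The lowest were Rpl3l (0.037), Rpl6l (0.24), Rpl36a (0.34), Rps23 (0.42) and Rpl38 (0.44), and in 3 of these, Rpl36a, Rps23 and Rpl38, all windows were shared. Rpl3l is a paralogue of Rpl3 known from muscle; it had 14 counts in all and no shared window.

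All members together took a small share of the counts. The 82 genes held 0.398% and 0.395% of all gene counts in WT untreated, 0.386% and 0.373% in Cop1 KO and 0.281% and 0.263% in WT LPS. Every WT LPS library was below every untreated one. The mean share was 31.4% lower in WT LPS than in WT untreated and 4.26% lower in Cop1 KO. With 2 libraries a group an exact permutation test cannot give a two-sided p below 0.333, so none is given.

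The direction of the family's change depended on the scaling. TMM, the edgeR scaling, assumes that most genes do not differ between libraries. With it, 58.4% of all genes tested were called in Cop1 KO and 73.7% in WT LPS, each against WT untreated. TMM gave summed CPM of 3344 and 3319 in WT untreated, 3702 and 3586 in Cop1 KO and 3490 and 3261 in WT LPS. On that scale Cop1 KO was 9.38% above WT untreated and WT LPS 1.32% above it, a difference smaller than the gap between the 2 WT LPS libraries. Summed normalised RPKM, which carries the authors' size factor, was 2422 and 2395, 2962 and 2864, and 2814 and 2611, or 20.9% higher in Cop1 KO and 12.6% higher in WT LPS.

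**Figure D2:**
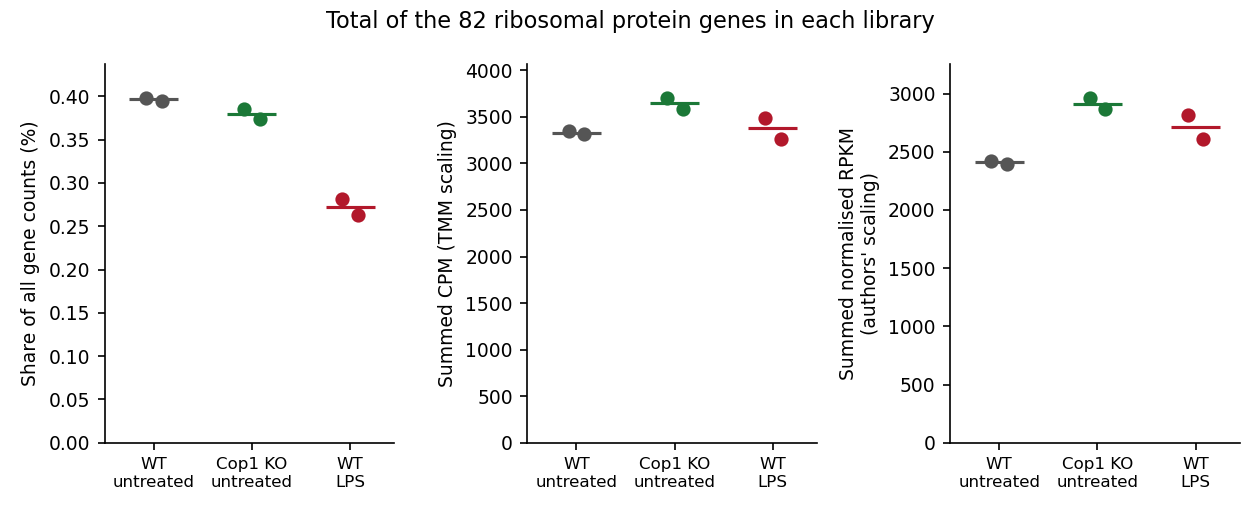
Total of the 82 genes in each library (points; line: mean of 2) as percent of all gene counts, as CPM after TMM scaling and as summed normalised RPKM. WT LPS is lowest as a share of counts (0.281% and 0.263%) but not on the other 2 scales.

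The medians are therefore given beside those of all genes. In the comparison of WT LPS with WT untreated the median log2 fold change was -0.08 for the 79 members tested and -0.18 for all 15585 genes. Median-of-ratios factors moved these to 0.07 and -0.04, and library size alone to -0.64 and -0.74. For Cop1 KO against WT untreated the pairs were 0.10 and -0.01 with TMM, 0.19 and 0.08 with median-of-ratios factors, and -0.09 and -0.20 with library size. An edgeR scaling moves every gene by nearly the same amount, so the gap between members and all genes is fixed by construction at 0.10 to 0.11 in both comparisons. DESeq2 and limma were run without the count filter, so their gaps cover 82 members and a wider set of all genes. In Cop1 KO these gaps were 0.17 with DESeq2 and 0.18 with limma, and with LPS 0.08 with each tool. They are not the same measure as the edgeR gap. The members' median itself rested on single libraries: with LPS it was -3.5e-05 without WT LPS replicate 2 and -0.02 without WT untreated replicate 1, and in Cop1 KO it was 0.03 without Cop1 KO replicate 1 and 0.05 without WT untreated replicate 2. These are descriptions of medians, without a test.

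**Figure D3:**
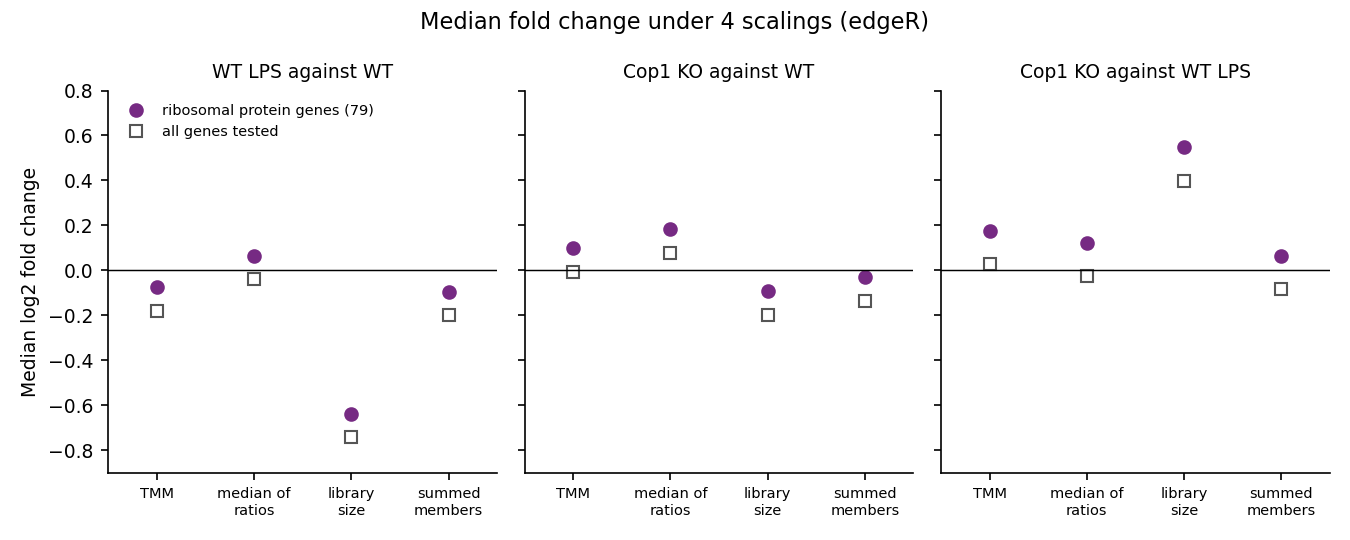
Median log2 fold change of the 79 members tested (filled circles) and of all 15585 genes tested (open squares) in 3 comparisons under 4 edgeR scalings. The members' median changes sign between scalings for WT LPS (-0.08, 0.07, -0.64, -0.09) and for Cop1 KO against WT (0.10, 0.19, -0.09, -0.03); the gap to all genes is fixed by construction.

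LPS was compared with no treatment in wild type to ask how the family responded to this stimulus. A smaller share of members than of all genes passed the test, and those that passed moved in both directions. Rps24 and Rpl39l were higher, and Rpl10a, Rpl3, Rpl5 and Rpl22 lower. Of the 79 members tested, 25 passed (31.6%, against 73.7% of all genes tested). There were 10 called higher (12.7%, against 30.2% of all genes tested) and 15 lower (19%, against 43.4%), and 54 that did not pass (edgeR quasi-likelihood test, adjusted p below 0.05). Without WT LPS replicate 2 the lower calls numbered 9. The calls differed with window sharing, in a split chosen after seeing the data. Among 16 tested members with under 50% of coding windows shared, 4 were called higher (25%) and 6 lower (37.5%). Among the 63 with 50% or more, 6 were called higher (9.52%) and 9 lower (14.3%). The median log2 fold change was -0.08 in both sets. The less shared members also had more counts (median 11679, against 1384 and 225 in the more shared classes above), and more counts make a call easier. The part of counts in this difference was not tested. Rpl36a, Rpl3l and Rpl6l had too few counts to be tested (33, 14 and 39 in all).

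Rps24, a small-subunit protein that takes part in the maturation of 18S ribosomal RNA, had the clearest increase. Its CPM values were 50.2 and 51.3 in WT untreated, 102 and 103 in WT LPS and 61.2 and 60.8 in Cop1 KO. The groups did not overlap and both WT LPS libraries were about 2-fold above WT untreated (log2 fold change 1.01, SE 0.05, adjusted p = 9.7e-25). The difference was 0.44 with library size alone, and with libraries scaled to the members' own sum it was 0.99, so Rps24 rose within the family. Its start-site stretch above holds a tract of 8 pyrimidines, and 78.3% of its coding windows were shared.

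Rpl39l is a paralogue of Rpl39 best known from the male germ line. It was low, at 1.59 and 1.53 CPM in WT untreated, 1.04 and 1.41 in Cop1 KO and 3.52 and 3.38 in WT LPS. It rose with LPS by 1.15 on the log2 scale (SE 0.25, adjusted p = 4.5e-05), and by 0.58 with library size alone. Rpl39 itself measured 2.86 and 2.5, 2.66 and 1.77, and 2.91 and 2.41 CPM in the same order of groups, which overlapped. The coding sequences are printed to show how the reads of this pair can be told apart; both have 153 bases, of which 130 are identical (85.0%), and capitals mark the 23 that differ.
Rpl39: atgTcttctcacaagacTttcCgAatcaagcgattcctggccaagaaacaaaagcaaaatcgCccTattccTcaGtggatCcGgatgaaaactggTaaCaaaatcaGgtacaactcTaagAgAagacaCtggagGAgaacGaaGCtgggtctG
Rpl39l: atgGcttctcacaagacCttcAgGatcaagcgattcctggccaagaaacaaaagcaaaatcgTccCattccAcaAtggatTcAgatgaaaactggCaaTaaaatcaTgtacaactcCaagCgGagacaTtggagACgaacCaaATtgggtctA
The longest identical run is 38 bases, shorter than a read, and no coding window of Rpl39l was found elsewhere. For Rpl39, 86.5% of windows were, and 8 of the 9 loci involved are pseudogenes.

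A further 7 higher calls, 5 of the small and 2 of the large subunit, were smaller or rested on fewer counts. Rps10 measured 15.1 and 13.8 CPM in WT untreated and 18.9 and 19.5 in WT LPS (log2 fold change 0.41, SE 0.09, adjusted p = 9.0e-05), and 28.7% of its exonic bases overlap a read-through gene model on the same strand. Rps20 went from 18.0 and 17.6 to 24.0 and 22.5 CPM (0.39, SE 0.08, adjusted p = 5.3e-05), and Rps9 from 118 and 110 to 147 and 126 (0.26, SE 0.05, adjusted p = 6.9e-06). With library size alone these 3 were -0.15, -0.18 and -0.31. Rps14, at 93.4 and 89.6 against 106 and 96.2 CPM, had the smallest value (0.14, SE 0.05, adjusted p = 0.0046); it was -0.42 with library size alone and not called without WT untreated replicate 2 (adjusted p = 0.11) or WT LPS replicate 1 (0.23). Rps4l (0.21, adjusted p = 0.047) lost its call without any 1 of the 6 libraries (adjusted p 0.051 to 0.17) and was -0.36 with library size alone. Rpl29, at 9.21 and 8.95 against 12.8 and 9.30 CPM, was called (0.29, adjusted p = 0.033), but without WT LPS replicate 1 its value was 0.03 (adjusted p = 0.85), and with library size alone -0.27. Rpl24 rested on 92 counts in all, with every coding window shared and 47% of its exonic bases inside another model on the same strand. Its call (1.15, SE 0.41, adjusted p = 0.0100) was lost without WT untreated replicate 2 (adjusted p = 0.098) and without WT LPS replicate 2 (adjusted p = 0.067).

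Rpl10a, a protein of the L1 stalk that guides spent tRNA out of the ribosome, had the largest decrease of the members called. It measured 14.9 and 13.9 CPM in WT untreated, 15.8 and 12.9 in Cop1 KO and 6.71 and 5.49 in WT LPS. The WT LPS values were less than those of either other group, with no overlap (log2 fold change -1.23, SE 0.13, adjusted p = 1.3e-12). Relative to the members' sum the value was -1.25, and on the authors' RPKM scale -0.93. All its coding windows were found elsewhere, at 5 loci that are all pseudogenes.

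Rpl3, which lies close to the peptidyl transferase centre, fell from 11.0 and 10.6 CPM to 6.93 and 5.98 (log2 fold change -0.73, SE 0.13, adjusted p = 1.9e-06). Rpl22, which also binds other RNAs outside the ribosome, fell from 92.6 and 93.3 to 71.0 and 64.0 CPM (-0.46, SE 0.05, adjusted p = 5.6e-12). Rpl22 is the most abundant of the 6 largest decreases at a mean of 5 CPM or more, with 11679 counts and 31.0% of windows shared. Rpl5, which with Rpl11 and 5S ribosomal RNA can bind MDM2, measured 15.9 and 17.9 CPM in WT untreated, 13.4 and 14.0 in Cop1 KO and 10.8 and 13.4 in WT LPS (-0.49, SE 0.11, adjusted p = 4.3e-05). All coding windows of Rpl5 were shared. Other gene models overlap 26.7% of its exonic bases, the largest being Fam69a on the opposite strand, and the kit does not keep the strand. Rpl11, the partner of Rpl5, also with every window shared, lay at 1.57 to 2.40 CPM in all libraries and passed no test.

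Rpl27a went from 20.8 and 19.3 to 14.8 and 15.2 CPM (-0.42, SE 0.09, adjusted p = 5.6e-05). Rpl31 went from 8.22 and 6.71 to 5.87 and 5.07 CPM (-0.44, SE 0.15, adjusted p = 0.0074), a call that was lost without WT untreated replicate 1 (adjusted p = 0.14) and without WT LPS replicate 2 (adjusted p = 0.085). Other gene models overlap 25.3% of the exonic bases of Rpl31, the largest being Tbc1d8 on the opposite strand. The other 9 lower calls included Rps27a, Rpl12, Rpsa, Rps2, Rpl13a, Rps27l, Rpl4 and Rps3, with log2 fold changes from -0.67 to -0.10. Rpl13a, known as the member of the GAIT complex that silences inflammatory messages after interferon gamma, measured 211 and 206 CPM in WT untreated and 181 and 164 in WT LPS (-0.28, SE 0.04, adjusted p = 5.6e-08). Of its exonic bases 35.4% are overlapped by other gene models, the largest on the same strand. Rps3, also described as a partner of NF-kB, measured 406 and 400 against 386 and 369 CPM (-0.10, SE 0.03, adjusted p = 0.0071). That small value turned to 0.05 with median-of-ratios factors, and the call was lost without WT untreated replicate 1 (adjusted p = 0.080) or WT LPS replicate 2 (0.089).

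Of these 25 calls, 9 were also made, in the same direction, with median-of-ratios factors, library size alone and scaling to the members' sum. They included Rps24 and Rpl39l among the higher, and Rpl10a, Rpl3, Rpl5, Rpl22, Rpl27a and Rpl13a among the lower. With DESeq2 and limma as well, 4 calls were left: Rps24, Rpl39l, Rpl10a and Rpl22. Rpl5 was lost with DESeq2 (adjusted p = 0.064) and limma (0.24), Rpl27a with DESeq2 (0.077), and Rpl3 and Rpl13a with limma (0.052 and 0.50). Under library size alone 61 members were called lower (77.2%, against 69.1% of all genes) and 2 higher (2.53%, against 17.2%).

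**Figure D4:**
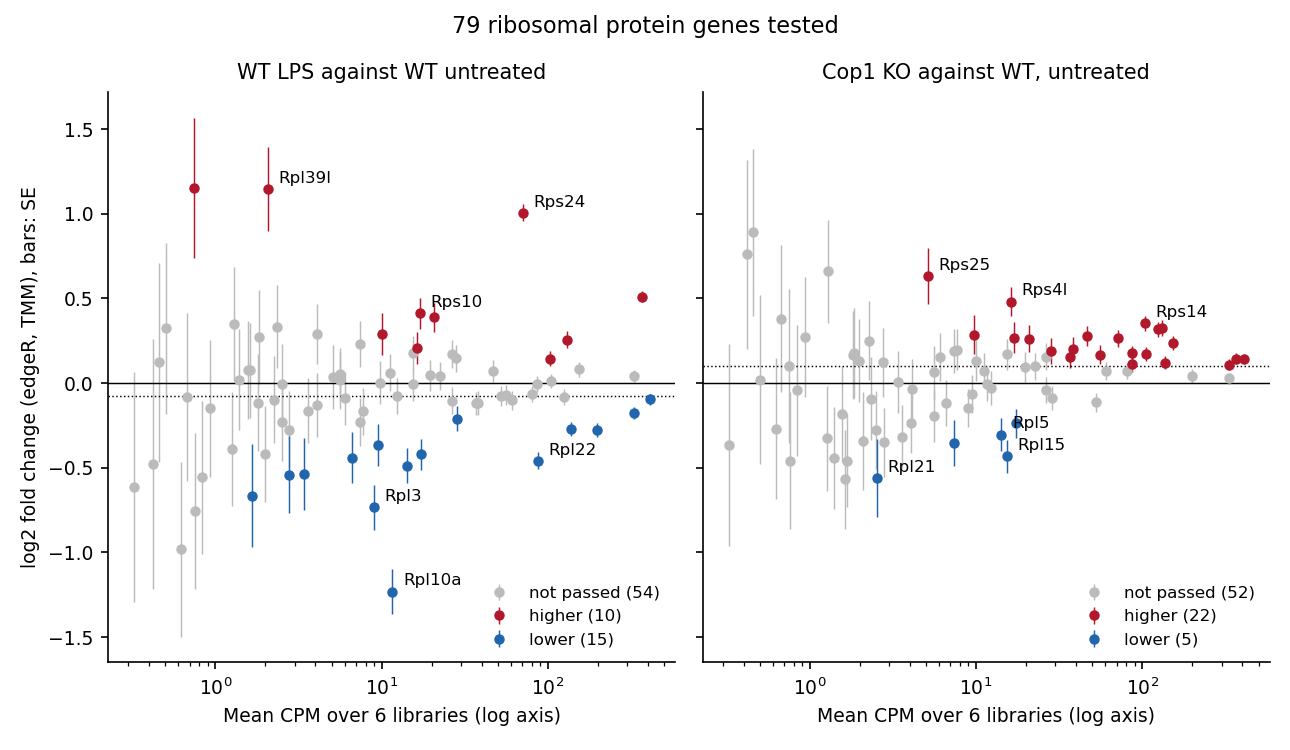
Log2 fold change (edgeR, TMM; bars: SE) of the 79 members tested against mean CPM (log axis), for WT LPS against WT untreated and Cop1 KO against WT untreated. Red points were called higher (10 and 22), blue lower (15 and 5), grey not passed; the dotted line is the members' median (-0.08 and 0.10), whose sign changes with the scaling.

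Cop1 KO was compared with WT untreated to ask how the family differed, without a stimulus, in the libraries labelled as the knockout, in which Cop1 RNA was lower but present. This comparison uses the same WT untreated libraries as the LPS one. Changes were small, and most calls were increases in abundant members, more often of a modest than of a large size. Of 79 members, 27 passed (34.2%, against 58.4% of all genes tested). There were 22 called higher (27.8%, against 28.1% of all genes tested), 5 lower (6.33%, against 30.3%), and 52 that did not pass (edgeR, TMM). The share of higher calls was near that of genes in general. With library size alone the counts turned to 5 higher (6.33%, against 14.9% of all genes) and 22 lower (27.8%, against 46.2%). Scaled to the members' sum they were 5 and 11 (6.33% and 13.9%, against 16.1% and 37.2%). Only 1 of the 22, Rps25, reached a fold of 1.5. With TMM, 10 of the 16 members with under 50% of coding windows shared were called higher (62.5%) and 0 lower. Of the 63 with 50% or more, 12 were called higher (19%) and 5 lower (7.94%). The median log2 fold changes of these sets were 0.14 and 0.07. As with LPS, the sets differ in counts, and the part of counts in the calls was not tested.

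Rps25, a small-subunit protein needed by some viral internal ribosome entry sites, measured 3.53 and 5.03 CPM in WT untreated, 5.58 and 7.72 in Cop1 KO and 4.47 and 4.35 in WT LPS. Its increase of 0.63 on the log2 scale (SE 0.16, adjusted p = 0.00085) lost its call when the first WT untreated library was left out (0.40, adjusted p = 0.071), and likewise for the second Cop1 KO library (0.38, adjusted p = 0.091). Of its exonic bases 24.8% overlap Trappc4 on the opposite strand, and the kit does not keep the strand.

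Rps14, Rps15 and Rps9 kept their calls without each library in turn, and Rps9 lost its call with limma (adjusted p = 0.075). Rps14, a small-subunit protein, measured 93.4 and 89.6 CPM in WT untreated and 119 and 115 in Cop1 KO (log2 fold change 0.35, SE 0.04, adjusted p = 8.4e-10). Rps15 measured 116 and 117 against 150 and 141 CPM (0.32, SE 0.04, adjusted p = 6.0e-09), and Rps9 118 and 110 against 150 and 136 (0.32, SE 0.05, adjusted p = 5.2e-08). The groups did not overlap in any of the 3, and with library size alone the values were 0.16, 0.13 and 0.13, all still called. Rps4l, listed as a transcribed pseudogene with 80.0% identity to Rps4x over the coding sequence, measured 13.7 and 13.8 CPM in WT untreated, 19.4 and 19.0 in Cop1 KO and 16.1 and 15.6 in WT LPS. It was higher in Cop1 KO by 0.48 (SE 0.09, adjusted p = 4.9e-06), while Rps4x lay between 11.5 and 13.0 CPM in all 6 libraries.

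Rpl37, at 9.33 and 8.87 against 12.3 and 9.84 CPM, was the sixth largest increase (0.28, SE 0.11, adjusted p = 0.030). It was not called without Cop1 KO replicate 1 (0.12, adjusted p = 0.51), without WT untreated replicate 1 (adjusted p = 0.063) or without WT untreated replicate 2 (adjusted p = 0.15). The other 16 higher calls ran from 0.11 for Rpl8 to 0.28 for Rpl18 and included Rps24 (0.26). Scaled by library size alone, Rpl18 was at 0.08, Rps24 at 0.07 and Rpl8 at -0.08, and the Rpl8 call was lost without WT untreated replicate 2 (adjusted p = 0.083).

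The 5 lower calls included Rpl21, Rpl15, Rpl5 and Rpl27a. Rpl15, a large-subunit protein, measured 16.5 and 17.3 CPM in WT untreated, 11.9 and 13.2 in Cop1 KO and 15.2 and 18.5 in WT LPS (log2 fold change -0.43, SE 0.10, adjusted p = 0.00013). Its start site carries a tract of 17 pyrimidines, shown above, and all its coding windows are shared. Rpl5 was lower by 0.30 (SE 0.10, adjusted p = 0.0057), a call that was lost without WT untreated replicate 2 (adjusted p = 0.16). Rpl27a, at 17.2 and 16.7 CPM in Cop1 KO, was lower by 0.24 (SE 0.08, adjusted p = 0.014); the call ended on leaving out Cop1 KO replicate 2 (0.082) or the first WT untreated library (0.16).

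Rpl21, at 2.70 and 3.28 against 2.30 and 1.77 CPM, was called at adjusted p = 0.031. The second WT untreated library (adjusted p = 0.25) and the second Cop1 KO library (0.24) each decided the Rpl21 call. Neither DESeq2 nor limma on log2 normalised RPKM called any member lower in Cop1 KO. Calls that also held, in the same direction, under median-of-ratios factors, library size alone and scaling to the members' sum were left for Rps14, Rps15, Rps4l, Rps25 and Rps9 among the higher and Rpl5 and Rpl15 among the lower. With DESeq2 and limma as well, Rps14, Rps15 and Rps4l were left.

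Cop1 KO was set against WT LPS directly to ask where the 2 conditions differ. Of 79 members, 30 passed (38%, against 79.6% of all genes tested), of which 24 were higher in Cop1 KO (30.4%, against 39.9% of all genes tested) and 6 lower (7.59%, against 39.6%). Rpl10a was 1.23 higher on the log2 scale (SE 0.13, adjusted p = 2.2e-12), Rpl22 0.57 (SE 0.05, adjusted p = 3.8e-15), Rpl3 0.59 (SE 0.14, adjusted p = 0.00012) and Rps15 0.40 (SE 0.04, adjusted p = 1.8e-11). Rps25 was 0.59 higher (adjusted p = 0.0023), but not called without Cop1 KO replicate 2 (0.35, adjusted p = 0.12), with DESeq2 (0.086) or with limma (0.27). The 6 lower in Cop1 KO included Rpl39l (-1.49, SE 0.27, adjusted p = 1.5e-06), Rpl24 (-1.05), Rps24 (-0.74, SE 0.05, adjusted p = 2.4e-19), Rps6 (-0.53, not called without Cop1 KO replicate 1, adjusted p = 0.066) and Rpl15 (-0.43, but -0.05 and not called with library size alone, adjusted p = 0.63). The Rpl24 call was lost without any 1 of the 4 libraries compared (adjusted p 0.063 to 0.095).

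**Figure D5:**
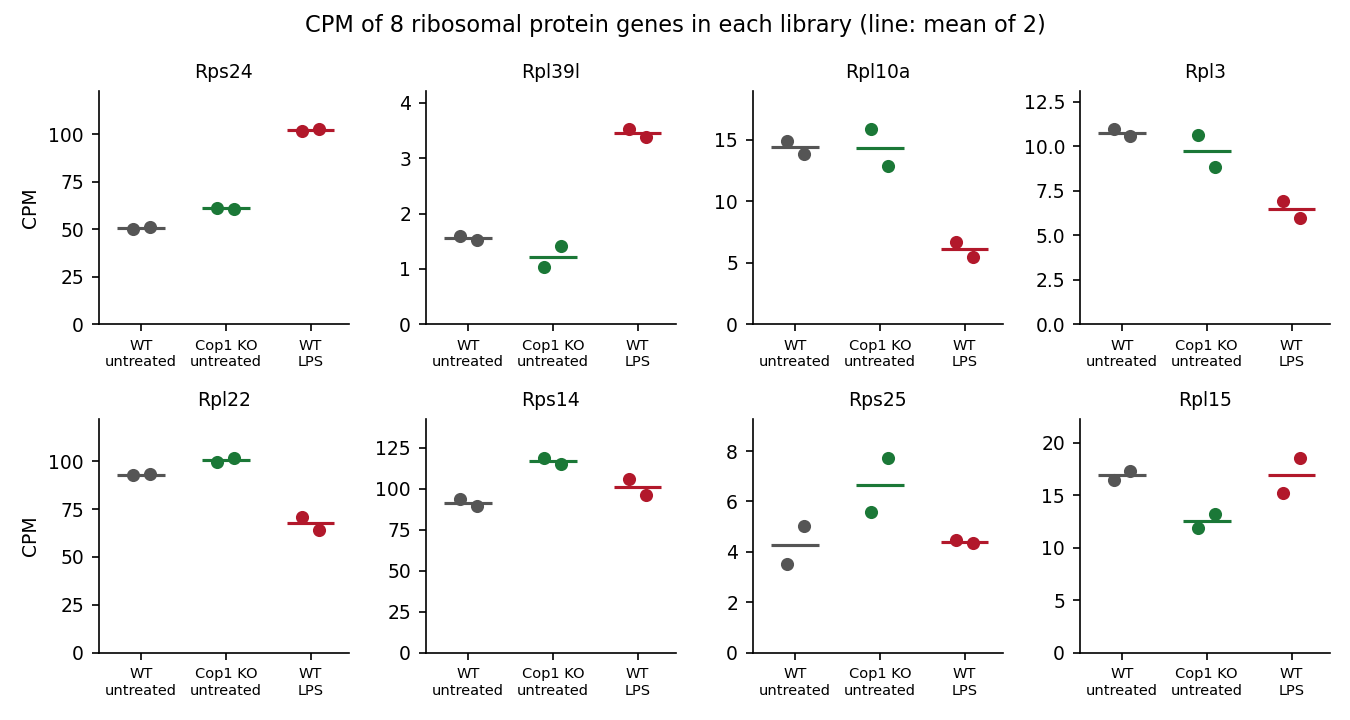
CPM (TMM scaling) of 8 members in each library, with 2 points and their mean for WT untreated, Cop1 KO and WT LPS; each vertical axis starts at 0. Rps24 and Rpl39l are highest in WT LPS, Rpl10a, Rpl3 and Rpl22 lowest there, and Rps14 and Rps25 are highest and Rpl15 lowest in Cop1 KO.

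The 2 subunits differed little in their medians. With LPS the median log2 fold change was -0.06 for 47 large-subunit and -0.08 for 32 small-subunit members. Of these, 3 and 7 were called higher (6.38% and 21.9%, against 30.2% of all genes tested). The lower calls were 9 and 6 (19.1% and 18.8%, against 43.4%). In Cop1 KO the medians were 0.07 and 0.13. There 9 and 13 were called higher (19.1% and 40.6%, against 28.1% of all genes tested). The lower calls were 4 and 1 (8.51% and 3.12%, against 30.3%). The large subunit gave 52.7% of member counts in both WT untreated libraries, 51.1% and 51.3% in Cop1 KO and 48.8% and 49.0% in WT LPS, and this share is free of library scaling. The groups did not overlap, the share being highest in WT untreated and lowest in WT LPS.

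The stalk proteins Rplp0, Rplp1 and Rplp2 did not pass the test with LPS, and 2 of the 3 were higher in Cop1 KO. Rplp0 measured 100 and 100 CPM in WT untreated, 114 and 112 in Cop1 KO and 100 and 102 in WT LPS (0.17 in Cop1 KO, SE 0.04, adjusted p = 0.00032). Rplp1 measured 147 and 137, 170 and 164, and 158 and 143 CPM (0.24, SE 0.04, adjusted p = 2.1e-06). The values of Rplp0 and Rplp1 were -0.02 and 0.04 with library size alone. Rplp2 lay between 21.5 and 25.2 CPM. Rpsa, also known as the laminin receptor, measured 4.05 and 3.54, 3.92 and 3.71, and 3.07 and 2.11 CPM, and was lower with LPS (-0.54, SE 0.21, adjusted p = 0.020), but not called without WT untreated replicate 1 (adjusted p = 0.12) or WT LPS replicate 2 (0.29).

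Paralogue pairs varied in how far apart their levels lay. Rps4x and Rps4l were close in uniquely aligned reads, with a mean normalised RPKM of 10.1 and 12.6. Of their windows 90.1% and 14.9% were shared, so these levels are not on an equal footing. Rpl39 and Rpl39l had 330 and 255 counts. Rps27l, a p53 target, stood at 25.8 to 31.5 CPM and its parent Rps27, with all windows shared, at 0.97 to 1.67; only 27.1% of the Rps27l windows were shared. Rps27l was lower with LPS (-0.21, SE 0.07, adjusted p = 0.010), but not called without WT untreated replicate 2 (adjusted p = 0.12) or WT LPS replicate 2 (0.074). With median-of-ratios factors Rps27l was -0.07 (adjusted p = 0.42), and DESeq2, limma and the fit of the 2 groups alone did not call it either (-0.08, -0.04 and -0.07). Rpl32l and Rpl6l are 97.2% and 98.7% identical to Rpl32 and Rpl6 over the aligned coding bases and had 124 and 39 counts. Outside the rule, Rpl22l1, Rpl36al, Rps3a1 and Fau passed neither test against WT untreated. Rack1, a small-subunit scaffold counted at 539 to 579 CPM, was called higher in Cop1 KO (0.08, SE 0.03, adjusted p = 0.021), but was -0.11 with library size alone and not called without either WT untreated library (adjusted p = 0.11 each) or Cop1 KO replicate 1 (0.13). Rpl7l1, at 49.8 to 56.5 CPM, was called higher with LPS (0.14, adjusted p = 0.022), but was -0.42 with library size alone and not called without WT untreated replicate 2 (adjusted p = 0.19) or either WT LPS library (0.058 and 0.070).

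Other genes of the translation machinery also moved in both directions with LPS, and their values stand beside those of all genes tested: with LPS 30.2% higher, 43.4% lower and a median of -0.18, and in Cop1 KO 28.1%, 30.3% and -0.01. Of 16 non-ribosomal TOP messages, 3 were called higher and 8 lower with LPS (18.8% and 50%, median -0.10), and 4 higher and 1 lower in Cop1 KO (25% and 6.25%, median 0.03). The poly(A)-binding protein gene Pabpc1 rose from 320 and 329 to 632 and 634 CPM (0.96, SE 0.03, adjusted p = 4.2e-33). The helicase cofactor gene Eif4b fell from 253 and 256 to 116 and 113 CPM (-1.15, SE 0.04, adjusted p = 5.2e-33), and the nascent-chain factor Btf3 rose from 33.1 and 34.3 to 51.9 and 50.7 (0.61, but 0.04 with library size alone). In Cop1 KO, Eif3f (0.20), Eif3h (0.19) and Npm1 (-0.30) had the smallest p. The Eif3f and Eif3h values were near 0 with library size alone, and Npm1 was not called without Cop1 KO replicate 1 (adjusted p = 0.054).

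Of 29 initiation factors, 14 were called higher and 5 lower with LPS (48.3% and 17.2%, median 0.05), and 7 and 9 in Cop1 KO (24.1% and 31.0%, near the shares of all genes, median -0.03). Eif4g2, a relative of the scaffold eIF4G, stood at 781 and 774 CPM in WT untreated, 614 and 644 in Cop1 KO and 2230 and 2344 in WT LPS. Eif6, which keeps the large subunit from joining the small one, stood at 47.4 and 50.0, 57.9 and 54.3, and 175 and 160 CPM. Both rose with LPS (1.56, SE 0.03, adjusted p = 2.2e-44, and 1.78, SE 0.05, adjusted p = 2.2e-36). The cap-binding protein gene Eif4e was lower in Cop1 KO (-0.57, SE 0.08, adjusted p = 2.1e-08).

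Of 40 ribosome assembly genes, 5 were called higher and 25 lower with LPS (12.5% and 62.5%, median -0.36), and 4 higher and 15 lower in Cop1 KO (10% and 37.5%, median -0.10). Polr1b, a core subunit of RNA polymerase I, measured 17.0 and 18.4 CPM in WT untreated, 17.4 and 17.3 in Cop1 KO and 4.14 and 5.07 in WT LPS (-1.95 with LPS, SE 0.14, adjusted p = 2.4e-20). The assembly factor gene Wdr43 went the other way, from 36.6 and 39.4 to 104 and 111 CPM (2.83-fold, adjusted p = 1.5e-30). In Cop1 KO the lower ones included Dkc1 (-0.70, SE 0.11, adjusted p = 1.3e-07), the pseudouridine synthase of H/ACA particles, and Nop58 (-0.52), a core protein of box C/D particles.

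Among 17 genes of mTORC1 and MYC control, 6 were called higher and 8 lower with LPS (35.3% and 47.1%), and 6 and 4 in Cop1 KO (35.3% and 23.5%). Larp1, which binds the TOP motif, rose from 112 and 118 CPM to 464 and 468 with LPS (2.02, SE 0.04, adjusted p = 2.9e-45). Myc, an activator of ribosomal genes, measured 30.0 and 31.6 CPM in WT untreated, 15.4 and 16.4 in Cop1 KO and 8.55 and 7.73 in WT LPS. It was lower in Cop1 KO by 0.95 (SE 0.08, adjusted p = 3.2e-15). Rptor and Eif4ebp1 were higher there, by 0.46 each.

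Mitochondrial ribosomal proteins, which build a separate ribosome, had 20 of 77 called higher and 24 lower with LPS (26.0% and 31.2%, median -0.02), and 10 and 10 in Cop1 KO (13.0% each, median -0.03). Mrpl52 rose with LPS from 19.6 and 18.8 to 81.6 and 73.3 CPM (2.01, SE 0.07, adjusted p = 2.1e-32). Proliferation genes, given because ribosome production follows growth, were lower: 16 of 18 with LPS (2 higher, median -2.13) and 17 of 18 in Cop1 KO (median -1.73). Mki67 measured 99.2 and 109 CPM in WT untreated, 20.9 and 24.6 in Cop1 KO and 25.2 and 24.0 in WT LPS. The part of proliferation in the ribosomal protein values was not tested.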

How the data were processed

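Polyadenylated RNA of 6 libraries (3 groups of 2) was prepared with an unstranded TruSeq RNA v2 kit and sequenced from 1 end on a HiSeq4000, per the labels' protocols. GSNAP and build GRCm38 are named in the submitters' processing notes; for GSNAP's version and the gene models, nothing is stated in the labels. The count column deposited by the authors gives uniquely aligned reads per gene model, per the file headers, so reads shared with pseudogenes are left out. The RPKM values deposited by the authors are adjusted by a size factor, per the file headers; its method is not given.

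Names came from RefSeq (31049 identifiers) and GENCODE (78); 5401 identifiers stayed unnamed and held 1.07% to 1.30% of counts. Genes were kept with filterByExpr by group (15585) and tested in R 4.3.3 with edgeR 4.0.16: TMM, group means over all 6 libraries, quasi-likelihood test, Benjamini-Hochberg over all genes, called below 0.05. TMM factors were 1.19 in both WT untreated, 1.04 in both Cop1 KO and 0.806 in both WT LPS libraries, and the biological coefficient of variation was 2.7%. CPM values use these factors. The fit was tested on simulated data in which few genes were changed, in the WT LPS group only and evenly in both directions. That setting cannot test the scaling of the real libraries, where far more genes differed. Alternatives used other scalings, DESeq2 1.42.0, limma 3.58.1 on log2(normalised RPKM + 1), no count filter, 2-group fits, a fold of 1.5 and each library left out. The DESeq2 and limma fits had no count filter and cover all 82 members. Member counts of replicates varied more than sampling alone gives (chi-square over its degrees of freedom 1.54, 2.66 and 3.56 in WT untreated, Cop1 KO and WT LPS). Over all genes the values were 1.58, 1.95 and 2.47 in the same order.

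Named are the 6 largest called increases and decreases per comparison at a mean of 5 CPM or more, the 3 members farthest above and below the family median where called, the 5 highest and 5 lowest levels, paralogue pairs, and up to 3 genes of each companion list by smallest p; a few other members were added after their values were seen. Members and lists were chosen with earlier results of these data known. Coding windows are 50-base stretches of the longest GENCODE coding sequence. Start-site and promoter sequences are from RefSeq. Some genes are not reported here by name; counts and totals include them.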

Additional observations from a re-analysis of the deposited data

How the results depend on the processing

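The 67 called values of named genes were refitted in 871 alternatives: 740 kept direction and call, 114 kept direction without the call, and 17 changed sign. With library size alone, which leaves the composition of the libraries unadjusted, the sign changed with LPS for Rpl29 (-0.27), Rps10 (-0.15), Rps20 (-0.18), Rps9 (-0.31), Rps14 (-0.42), Rps4l (-0.36) and Rpl7l1 (-0.42); and in Cop1 KO against WT for Rplp0 (-0.020), Rpl8 (-0.083), Rack1 (-0.11) and Eif3h (-0.0038). Scaled to the members' sum Rpl8 was -0.019 and Rack1 -0.050. Rps3 with LPS was 0.045, 0.037, 0.066 and 0.048 with median-of-ratios factors, DESeq2, limma and the 2-group fit. Counts are given as higher and lower. In Cop1 KO against WT (22 and 5), median-of-ratios factors gave 2 lower, library size alone 5 and 22, scaling to the members' sum 5 and 11, DESeq2 and limma 0 lower each, and a fold of 1.5 left 1 and 0; leaving out 1 library gave 16 to 22 and 2 to 5, the lowest without WT untreated replicate 2 (2 lower) and Cop1 KO replicate 2 (3 lower). With LPS (10 and 15), median-of-ratios factors gave 21 and 7, library size 2 and 61, DESeq2 5 lower, limma 3 lower, the fit of 2 groups 22 and 7, and a fold of 1.5 left 3 and 3; leaving out 1 library gave 7 to 14 and 9 to 21. In Cop1 KO against WT LPS (24 and 6), library size gave 53 and 2, the members' sum 9 and 10, DESeq2 12 higher, limma 10 higher, and a fold of 1.5 left 3 and 3; leaving out 1 library gave 20 to 26 and 4 to 8.

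The members' median was 0.10 in Cop1 KO and became 0.19, -0.093, -0.030, 0.18 and 0.18 with median-of-ratios factors, library size, the members' sum, DESeq2 and limma. With LPS it was -0.08 and became 0.066, -0.64, 0.059 and 0.080 with median-of-ratios factors, library size, DESeq2 and limma, and 0.071 in the 2-group fit. In Cop1 KO against WT LPS it was 0.18 and became 0.55 with library size and 0.066 with the members' sum. Restricted to members with under 50% of windows shared, an alternative chosen after seeing the data, the medians were 0.14, -0.08 and 0.22. The large minus small subunit median in Cop1 KO against WT LPS went from -0.09 to -0.0037 without members under 10 CPM. As a share of counts of named genes the family held 0.402% and 0.399% in WT untreated. Without the 10 most abundant other genes it held 0.462% and 0.458%, 0.462% and 0.447%, and 0.308% and 0.288% in WT untreated, Cop1 KO and WT LPS. Of summed normalised RPKM it held 1.09% and 1.08%, 1.02% and 0.989%, and 0.724% and 0.681%. The cause of these shifts was not tested. No paired analysis was possible because the labels give no replicate numbers, and those used here only name libraries. Members with few unique reads limit the rest: 27 members with every window shared had a median of 225 counts.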
